A study of Homo sapiens with 6 samples.

Results

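Surface serine proteases of epithelial cells, their Kunitz inhibitors and a protease-activated receptor were followed through 6 RNA sequencing libraries. The 9 genes were chosen by name and found by their symbol among the 26485 rows of the count table: ST14, PRSS8, TMPRSS2, TMPRSS4, HPN and PRSS22 (proteases), SPINT1 and SPINT2 (inhibitors) and F2RL1 (receptor). Polyadenylated RNA came from HuCCT1, a human cancer cell line of the bile ducts (cholangiocarcinoma) that had been edited with CRISPR/Cas9 and cloned. Libraries a, b and c of clone 1 are labelled wild type, and libraries a, b and c of clone 22 are labelled as knockout of AQP1, which encodes the water channel aquaporin-1. All were grown in DMEM-F12 with serum. Each genotype is 1 clone, so genotype and clone cannot be told apart, and nothing in the labels says that the letters are separate cultures. P-values therefore rest on a library-to-library spread that may be only technical.

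Membrane-anchored serine proteases are trypsin-like enzymes held at the cell surface that cleave neighbouring receptors, growth factor precursors and channels. Matriptase (ST14) and prostasin (PRSS8) activate one another in polarized epithelia, and HAI-1 (SPINT1) and HAI-2 (SPINT2), transmembrane proteins with Kunitz domains, inhibit both enzymes and hepsin (HPN). PAR2 (F2RL1) is a G protein-coupled receptor that these proteases switch on by cutting its outer end. In epithelia the system maintains barrier function, and an excess of matriptase over its inhibitors is known from carcinomas.

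Libraries held 36925338 to 41724447 counts, and a count of 3, taken as the floor of detection, equals 0.0719 to 0.0812 CPM (counts per 1000000 counts of the library). AQP1 itself had 2, 8 and 10 counts in the wild-type and 10, 7 and 7 in the knockout libraries, so its RNA does not check the labels. Of 11 tested cholangiocyte markers 10 were called lower in the knockout, and SCTR was at 0 throughout. Their summed level was 6645 to 6685 CPM in wild-type and 2810 to 2874 CPM in knockout libraries. Markers of other cell types summed to 52.2 to 55.9 against 86.3 to 93.8 CPM for hepatocytes (APOB, TTR and CYP3A4 at 0), 15.9 to 18.2 against 35.5 to 38.6 CPM for fibroblasts, 2.18 to 2.59 against 2.15 to 3.06 CPM for endothelium and 216 to 223 against 243 to 252 CPM for immune cells (PTPRC at 0). Within these sums FGB went from 0.040 ± 0.014 to 15.6 ± 1.09 CPM, FGA from 0 to 2.23 ± 0.326 CPM, CD68 from 109 ± 2.91 to 207 ± 3.83 CPM and CD74 from 108 ± 2.20 to 40.4 ± 1.95 CPM. Mast cell markers, which bear on tryptase-like genes, stayed at or below 0.441 CPM in sum with TPSAB1 and MS4A2 at 0. The part of these shifts in the results was not tested.

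Promoter sequence is shown for SPINT1, the inhibitor with the larger fall, and for F2RL1, the gene that rose. Of the 9 genes, 3 (SPINT1, F2RL1 and HPN) matched the RefSeq promoter table of GRCh38.p14. Each window holds 250 bases before and 50 bases after the annotated start, both on the plus strand, at chr15:40843798-40844097 for SPINT1 and chr5:76818780-76819079 for F2RL1. Capitals mark matches to the E-box CACCTG on either strand, the core bound by ZEB and SNAI repressors.
SPINT1: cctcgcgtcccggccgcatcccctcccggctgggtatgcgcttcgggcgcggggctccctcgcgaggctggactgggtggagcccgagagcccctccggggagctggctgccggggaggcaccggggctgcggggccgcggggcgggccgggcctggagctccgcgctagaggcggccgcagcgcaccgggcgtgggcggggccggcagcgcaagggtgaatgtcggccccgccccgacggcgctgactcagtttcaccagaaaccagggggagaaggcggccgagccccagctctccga
F2RL1: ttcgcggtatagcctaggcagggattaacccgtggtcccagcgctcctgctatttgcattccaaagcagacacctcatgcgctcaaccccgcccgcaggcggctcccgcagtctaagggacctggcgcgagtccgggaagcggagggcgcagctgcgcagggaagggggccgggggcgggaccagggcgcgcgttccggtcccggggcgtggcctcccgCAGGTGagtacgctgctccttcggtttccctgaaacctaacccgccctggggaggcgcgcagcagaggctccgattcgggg
The SPINT1 window had no match. The F2RL1 window had 1, which begins 31 bases before the start, and the HPN window had 3. The HPN window lies around a start at 35041721, inside the gene as placed in the gene table, which begins at 35040506. Among 15843 protein-coding promoters of this length 19.9% held at least 1 match. The motif AACCNGTT, a core of Grainyhead-like factors searched on both strands, was in none of the 3 windows and in 1.61% of all. Where N is T, it shares the letters ACCTG with the E-box. SPINT1 had 38 CG dinucleotides in its window, F2RL1 had 31 and HPN had 12, against a median of 22 over all of them.

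In the knockout clone ST14, PRSS8, TMPRSS4 and PRSS22 fell to 2.45 to 4.07% of their wild-type level. TMPRSS2 fell from few counts, HPN was not detected, and the inhibitors SPINT1 and SPINT2 fell to 21.2 and 52.3%. The receptor gene F2RL1 rose by a factor of 1.27. These levels are ratios of mean CPM, without the scaling factors of the fit. Of the 9 genes, 8 passed the filter on low counts and HPN did not. In edgeR's quasi-likelihood test with Benjamini-Hochberg (BH) adjustment over 14405 genes, 7 of the 8 fell and 1 rose at an adjusted p under 0.05. Calls were common in these clones: 74.4% of all tested genes were called, 37.2% lower and 37.1% higher, so a call alone sets none of the 8 apart. TMPRSS2, TMPRSS4 and PRSS22 passed the filter only through the wild-type libraries, so a fall was built in for them. The other 5 would have passed on either clone alone. Of these 4 fell, 3 of them by at least 2-fold and 2 by at least 16-fold. Falls of those sizes were called in 9.05% and 0.861% of all tested genes. Those shares include genes that passed the filter through 1 clone only, and were not computed for genes passing on either alone. Since the genes were chosen with earlier results known, this comparison is a description only. In all 8 the libraries of the clones did not overlap in CPM, as in 77.3% of tested genes. Being bulk RNA, the data cannot tell fewer cells with a transcript from less of it per cell.

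**Figure D1:**
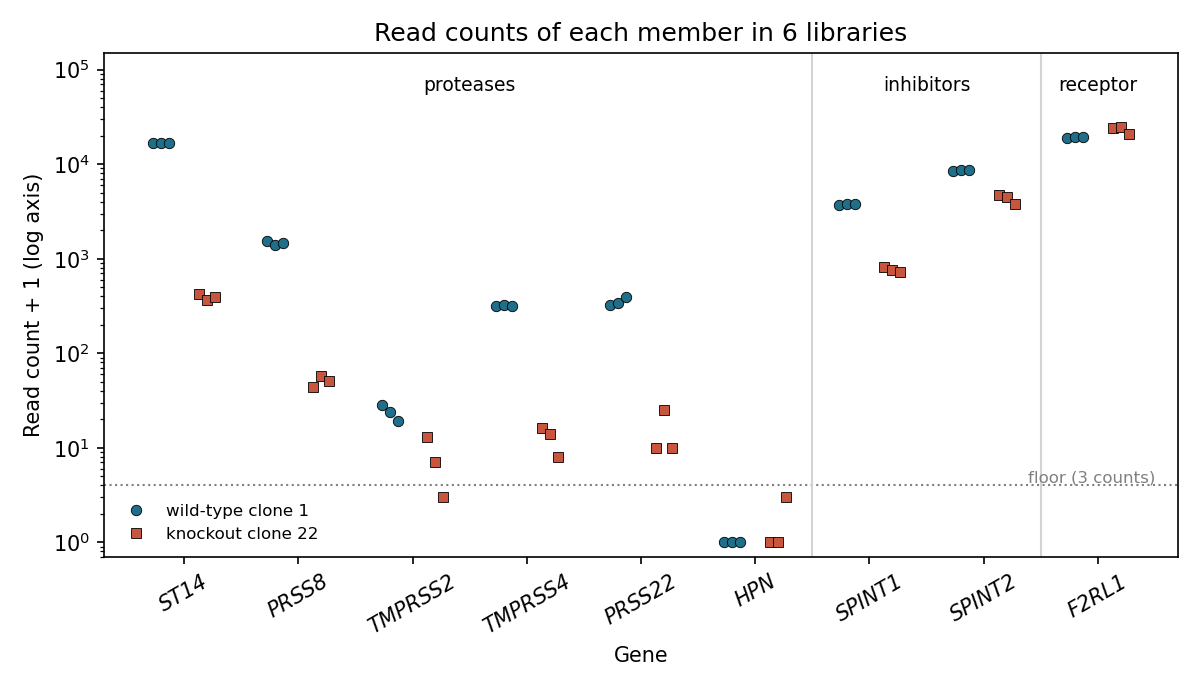
Read count + 1 (log axis) of each of the 9 genes in the 3 wild-type (circles) and 3 knockout (squares) libraries, with the floor of 3 counts as a dotted line. ST14 lies between 16682 and 16905 counts in wild type and between 363 and 423 in the knockout, while F2RL1 has at least 18734 counts in every library.

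ST14 encodes matriptase, a type II transmembrane protease and an upstream activator in this system (chromosome 11, 130159782 to 130210362, GRCh38). In the order a, b, c, which holds for all such series of 3 counts, it had 16682, 16772 and 16905 counts in wild type and 423, 363 and 396 in the knockout. The groups were far apart, and the libraries within each varied little. The level went from 408 ± 3.48 to 9.99 ± 0.980 CPM (mean ± SD, n = 3 each), so 2.45% of the wild-type level was measured in the knockout. The log2 fold change was -5.41 (SE 0.045, edgeR quasi-likelihood with BH, adjusted p = 1.34e-17). Only 0.333% of tested genes had a lower log2 fold change.

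PRSS8 encodes prostasin, a protease with a lipid (GPI) anchor that matriptase activates and that in turn supports matriptase activation (chromosome 16, 31131433 to 31135727). Its counts were 1530, 1412 and 1478 in wild type and 43, 57 and 50 in the knockout. Every knockout library was far below every wild-type one. The level fell from 35.8 ± 1.81 to 1.27 ± 0.186 CPM, with a log2 fold change of -4.87 (SE 0.097, edgeR with BH, adjusted p = 3.67e-14).

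TMPRSS4 encodes a type II transmembrane protease known from pancreatic and other carcinomas (chromosome 11, 118077078 to 118125505). It had 318, 323 and 317 counts in wild type against 15, 13 and 7 in the knockout. SMIM35 and LOC105369517 overlap TMPRSS4, and with no strand setting known their reads and its own may not be separable. The level fell from 7.75 ± 0.136 to 0.292 ± 0.092 CPM (log2 fold change -4.76, SE 0.21, edgeR with BH, adjusted p = 1.32e-10). PRSS22 encodes a tryptase of airway and other epithelia that is released rather than kept at the membrane (chromosome 16, 2852730 to 2858170). Its counts were 325, 343 and 396 in wild type and 9, 24 and 9 in the knockout. Knockout library b stood above a and c and still far below wild type. The PRSS22 level fell from 8.60 ± 0.782 to 0.350 ± 0.205 CPM (log2 fold change -4.65, SE 0.26, adjusted p = 1.49e-09 in the same test), and without knockout library b the log2 fold change was -5.24. The log2 fold changes of PRSS8, TMPRSS4 and PRSS22 lay within 1 SE (the larger of each pair) of the next in order, and their differences were not tested.

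TMPRSS2, a protease best known for priming viral surface proteins and for its androgen control in prostate, had few counts in both clones (chromosome 21, 41464305 to 41508158). It had 27, 23 and 18 counts in wild type and 12, 6 and 2 in the knockout, and the lowest knockout library was below the floor. Levels were 0.551 ± 0.117 and 0.165 ± 0.121 CPM. The ratio of summed counts, knockout over wild type, was 0.306 with an exact 95% interval of 0.176 to 0.511, which covers counting error only. The log2 fold change was -1.75 (SE 0.53, edgeR with BH, adjusted p = 0.00888), and -2.44 without knockout library a. HPN, the gene of hepsin, a protease abundant in liver, was not detected at this depth (chromosome 19, 35040506 to 35066573). Its counts were 0 in 5 libraries and 2 in knockout library c, all below the floor, so no fold is given. HPN-AS1 overlaps HPN and had 4 counts in all.

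The inhibitors kept more of their transcripts than ST14 and PRSS8, the proteases that would have passed the filter on either clone alone. TMPRSS4 and PRSS22 also kept less, but for them a fall was built in. TMPRSS2 kept 29.9%, between SPINT1 and SPINT2, at few counts. SPINT1, the gene of HAI-1 (chromosome 15, 40844048 to 40858207), had 3667, 3781 and 3769 counts in wild type and 807, 759 and 717 in the knockout. The groups were well separated. Its level fell from 90.8 ± 0.647 to 19.2 ± 0.623 CPM, to 21.2% of wild type (log2 fold change -2.29, SE 0.048, edgeR with BH, adjusted p = 5.65e-14). SPINT1-AS1 overlaps SPINT1, with the same limit on telling their reads apart. SPINT2, the gene of HAI-2 (chromosome 19, 38264573 to 38292615), had 8435, 8649 and 8770 counts in wild type and 4768, 4466 and 3785 in the knockout. Its knockout libraries spread more widely than its wild-type ones, without reaching them. The level fell from 209 ± 1.06 to 109 ± 7.15 CPM, to 52.3% of wild type (log2 fold change -0.99, SE 0.039, adjusted p = 3.53e-11 in the same test).

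F2RL1, the PAR2 gene (chromosome 5, 76819030 to 76835315), had 18734, 19356 and 19569 counts in wild type and 24278, 24932 and 20961 in the knockout. All 3 knockout libraries were above all 3 wild-type libraries, knockout library c least so. The level rose from 467 ± 3.81 to 591 ± 21.2 CPM, a factor of 1.27. With the TMM scaling factors of the fit the log2 fold change was 0.29 (SE 0.029, edgeR with BH, adjusted p = 7.6e-07). With library totals alone it was 0.34. Tested against a 1.5-fold change with glmTreat, this rise was not called, while the 7 falls were.

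To compare genes with each other, counts were scaled by exon length (CPM per kb of GENCODE 29 exons). In wild type the highest level was that of F2RL1 at 160 ± 1.31 CPM per kb. SPINT2 at 116 ± 0.587 and ST14 at 115 ± 0.983 CPM per kb followed and did not differ beyond their spread. SPINT1 (29.7 ± 0.212), PRSS8 (19.1 ± 0.968), PRSS22 (6.21 ± 0.564), TMPRSS4 (1.39 ± 0.024) and TMPRSS2 (0.166 ± 0.035) came next in CPM per kb, each apart from its neighbour. In the knockout F2RL1 (203 ± 7.28) and SPINT2 (60.8 ± 3.97) remained highest, followed by SPINT1 (6.30 ± 0.204) and only then ST14 (2.82 ± 0.277). PRSS8 was at 0.677 ± 0.099 and PRSS22 at 0.253 ± 0.148 CPM per kb. TMPRSS4 (0.0522 ± 0.016) and TMPRSS2 (0.0497 ± 0.036) did not differ beyond their spread there.

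The balance of protease to inhibitor transcripts was compared within each library, where scaling between libraries drops out. Per kb, ST14 stood to SPINT1 as 3.93, 3.83 and 3.87 in wild type and as 0.453, 0.413 and 0.477 in the knockout. Matriptase transcripts thus outnumbered those of HAI-1 in each wild-type library and were fewer in each knockout library. ST14 to SPINT2 was 0.992 ± 0.013 in wild type and 0.0466 ± 0.006 in the knockout (n = 3 each). On the log2 scale the ST14 to SPINT1 ratio differed by -3.12 (8.67-fold lower) and the ST14 to SPINT2 ratio by -4.42 (21.4-fold lower).

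PRSS8, TMPRSS4 and PRSS22 gave ratios in the same direction, and TMPRSS2 did so only to SPINT2. PRSS8 to SPINT1 differed by -2.58 and PRSS8 to SPINT2 by -3.88 on the log2 scale. For TMPRSS4 the differences were -2.49 to SPINT1 and -3.79 to SPINT2, and for PRSS22 -2.47 and -3.77. In these 8 ratios, counting those of ST14, no knockout library overlapped a wild-type library. TMPRSS4 and PRSS22 passed the filter only through wild type, so a fall of the protease was built into their ratios. How often the ratios of other gene pairs overlap was not computed. An exact two-sided permutation test gave p = 0.1 for each, the smallest that 3 against 3 libraries allow, and 0.12 after BH over 12 ratios, so none can pass 0.05. The TMPRSS2 to SPINT1 ratio differed by 0.34 (exact permutation p = 0.7) and TMPRSS2 to SPINT2 by -0.96 (exact permutation p = 0.2), at few counts. Ratios with HPN are set by the added 0.5 count and are not given. The inhibitors also changed unequally: SPINT1 stood to SPINT2 per kb as 0.256 ± 0.002 in wild type and 0.104 ± 0.007 in the knockout.

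**Figure D2:**
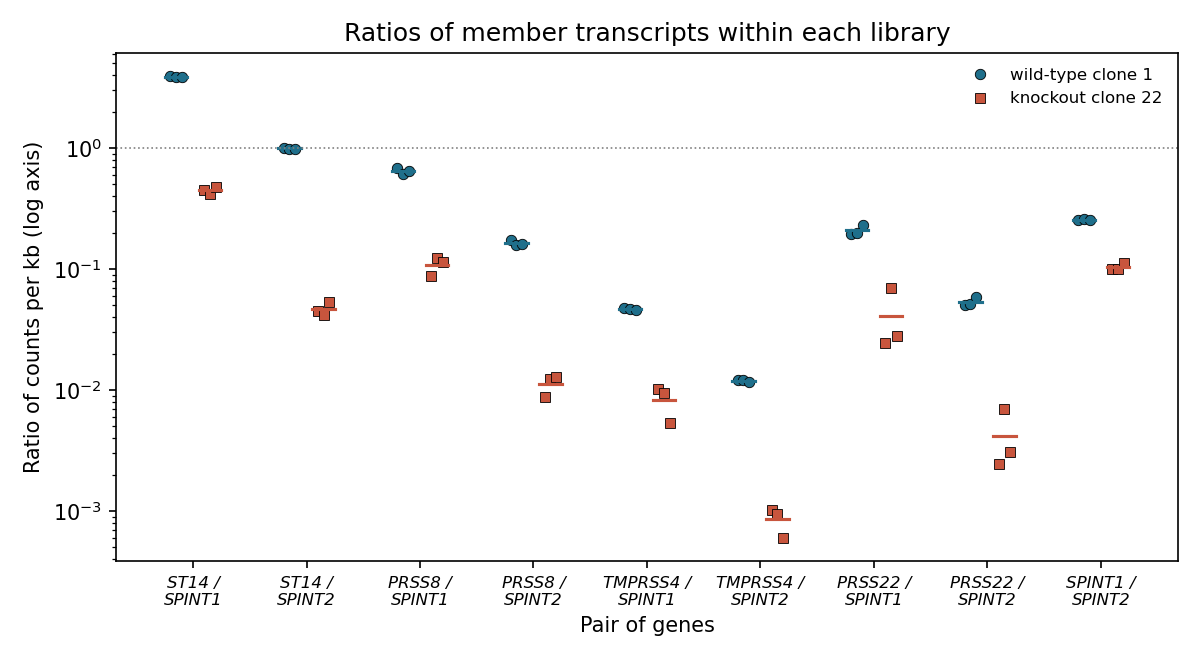
Ratios of counts per kb of exon (log axis) for pairs of genes within each library, with the 3 libraries of each clone as points and their mean as a line. The ratio of ST14 to SPINT1 lies near 3.88 in wild type and near 0.448 in the knockout, and in each pair shown the knockout libraries lie below the wild-type ones. Pairs with HPN and with TMPRSS2, whose ratio to SPINT1 was not lower in the knockout, are not shown. TMPRSS4 and PRSS22 passed the filter only through wild type.

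Genes around ST14, TMPRSS4 and PRSS22 were more often called lower than higher, by small amounts at the median. Over all tested genes 37.2% were called lower and 37.1% higher. Within 1 Mb of ST14, 7 of 9 other tested genes fell and 1 rose, with a median log2 fold change of -0.28. Within 5 Mb, 27 of 38 fell and 4 rose, with a median of -0.40, and its nearest tested neighbours were APLP2 (0.32) and ZBTB44 (-0.28). The lowest within 1 Mb of ST14 was ADAMTS15 (-4.92), which passed the filter only through wild type, and the highest was at 0.33. Of 48 tested genes within 1 Mb of PRSS8, 6 fell and 15 rose, with a median of 0.17, with KAT8 (-0.08, not called) next to it on one side. Around TMPRSS4, 18 of 32 fell and 4 rose, with a median of -0.26, and the nearest were IL10RA (0.39) and SCN4B (0.89), both not called. The lowest within 1 Mb of TMPRSS4 was TMPRSS13 (-4.39), another membrane-anchored serine protease, and the highest was at 7.53. Around PRSS22, 25 of 71 fell and 16 rose, with a median of -0.07, and the nearest were ZG16B (0.43) and FLYWCH2 (0.43). TMPRSS2 lay between MX1 (-0.01) and RIPK4 (0.39), with a median of -0.01 over 9 genes.

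Both inhibitor genes fell in stretches whose genes were mostly called higher, against 37.1% called higher and 37.2% lower over all tested genes. Of 41 tested genes within 1 Mb of SPINT1, 27 rose and 7 fell, with a median log2 fold change of 0.36, and the nearest were ZFYVE19 (0.95) and RHOV (-0.12). Of 30 near SPINT2, 21 rose and 5 fell, with a median of 0.82, and the nearest were DPF1 (0.93) and YIF1B (1.28). F2RL1 rose by 0.29, while of 9 genes within 1 Mb 5 rose and 2 fell, with a median of 0.74. Within 5 Mb 34 of 51 rose and 6 fell. Its neighbours F2R (1.82) and AGGF1 (0.63) both rose. The part of these stretches in the members' values was not tested.

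**Figure D3:**
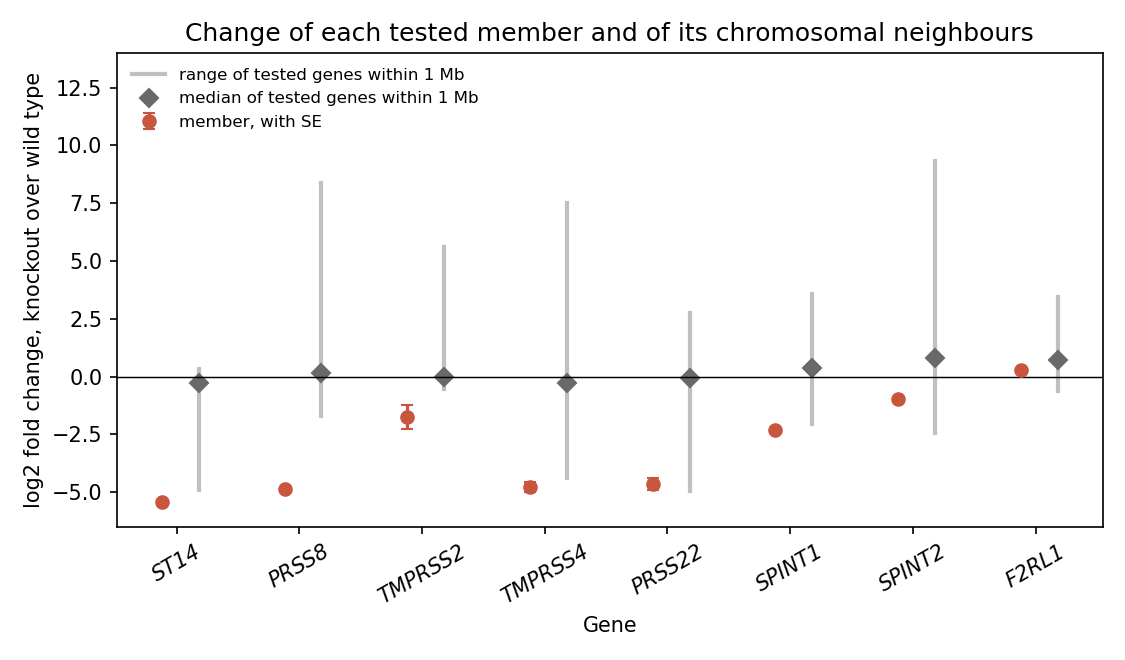
Log2 fold change (knockout over wild type) of the 8 tested genes with SE (circles), beside the median (diamonds) and range (grey lines) of the other tested genes within 1 Mb of each start. ST14 at -5.41 lies below all of its neighbours, and SPINT1 and SPINT2 lie below 0 while the medians around them are 0.36 and 0.82.

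Genes with the most similar profile were sought for ST14 and SPINT1 among 9246 genes, by the root mean square difference of centred log2 CPM over the 6 libraries. This measure mostly reads the difference between the clones, which all the points share. Closest to ST14 were IL1RN (145 ± 1.52 to 3.57 ± 0.659 CPM, difference 0.091), MAL2 (0.14), MACC1 (0.20), RAB25 (0.22) and SUSD2 (0.22). IL1RN encodes an antagonist of interleukin-1, and MAL2 and RAB25 serve apical membrane traffic. Closest to SPINT1 were MSMO1 (128 ± 1.93 to 26.9 ± 0.351 CPM, difference 0.023), PRRG1 (0.029), AP1M2 (0.055) and PKP3 (0.055). MSMO1 is an enzyme of cholesterol synthesis, and PKP3 is a desmosomal plaque protein.

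Most other membrane-anchored serine proteases were too low to be tested, and the tested ones went both ways. Of 17 genes, 11 reached the floor of 3 counts in at least 1 library and 6 were tested, of which 2 rose, 2 fell and 2 were not called, with a median log2 fold change of 0.38 against 0.01 over all tested genes. TMPRSS13 fell from 666, 686 and 674 to 25, 31 and 40 counts (16.4 ± 0.227 to 0.818 ± 0.241 CPM, log2 fold change -4.39, edgeR with BH, adjusted p = 1.18e-11). This gene lies within 1 Mb of TMPRSS4. TMPRSS11E, a protease of squamous epithelia, had 48, 24 and 39 counts in wild type and 0 in the knockout, at least 35.5-fold lower with 3 counts over the group as the floor. TMPRSS15 encodes enteropeptidase, which activates trypsinogen in the duodenum, and rose from 95.7 ± 1.46 to 166 ± 2.45 CPM (log2 fold change 0.74). TMPRSS3 rose from 8, 0 and 2 to 37, 30 and 23 counts (log2 fold change 3.12, edgeR with BH, adjusted p = 7.02e-04). TMPRSS3 and TMPRSS5 passed the filter only through the knockout and TMPRSS11E only through wild type, so the directions of TMPRSS3 and TMPRSS11E were built in. Of the other 3 tested genes 1 rose, 1 fell and 1 was not called, with a median of 0.16. Over all tested genes 37.1% were called higher and 37.2% lower. TMPRSS11A, TMPRSS11B, TMPRSS12 and PRSS21 had no count in any library.

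Targets of these proteases and the receptors of the growth factors they activate were a further list. Of 19 genes, 15 were tested, of which 9 fell, 3 rose and 3 were not called, beside 37.2% lower and 37.1% higher over all tested genes. Their median log2 fold change was -0.68, against 0.01 over all. The falls were led by LAMB3, a chain of laminin-332 (594 ± 10.1 to 48.2 ± 1.98 CPM), EPCAM, an adhesion molecule that matriptase cuts (484 ± 6.24 to 40.7 ± 1.41 CPM), and its partner CLDN7 (136 ± 0.878 to 12.6 ± 0.878 CPM). The rises were SCNN1A, a subunit of the sodium channel that prostasin activates (4.03 ± 0.156 to 10.9 ± 0.285 CPM), PDGFD (4.23 ± 0.605 to 9.81 ± 1.60 CPM) and PLAU, the urokinase gene (93.0 ± 2.09 to 134 ± 0.420 CPM). HGF, the best known growth factor precursor cut by hepsin and matriptase, had 2 counts in knockout library b and 0 elsewhere. Its receptor MET went from 991 ± 12.8 to 658 ± 9.60 CPM (log2 fold change -0.64) and the related receptor gene MST1R from 2243, 2282 and 2160 to 580, 584 and 609 counts (log2 fold change -1.91). HGF, MET and MST1R were named after their values were seen, and both receptors were called lower.

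The other protease-activated receptors rose more than F2RL1. F2R, the thrombin receptor PAR1, had 2984, 3021 and 3078 counts in wild type and 11075, 10833 and 10015 in the knockout (log2 fold change 1.82, SE 0.025, edgeR with BH, adjusted p = 9.57e-16). F2RL2, the gene of PAR3, had 65, 55 and 88 counts against 759, 762 and 762 (log2 fold change 3.46, SE 0.14, adjusted p = 3.95e-11 in the same test). F2RL3 had no count in any library. F2R is the nearest tested gene before F2RL1, and F2RL2 also lies within 1 Mb of it. The difference between the receptors' fold changes was not tested.

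Inhibitors outside the HAI pair went both ways. Of 21 genes, 14 were tested, of which 9 rose, 3 fell and 2 were not called, with a median log2 fold change of 0.41. SERPINA5, SERPINA3 and AMBP passed the filter only through the knockout, so their rise was built in. Of the other 11, 6 rose and 3 fell, beside 37.1% higher and 37.2% lower over all tested genes. SERPINE2, or protease nexin-1, which can inhibit prostasin, rose from 18, 16 and 11 to 2626, 2779 and 2472 counts (0.365 ± 0.092 to 66.4 ± 1.87 CPM, log2 fold change 7.44, SE 0.11, edgeR with BH, adjusted p = 1.40e-15). SERPINA5, the protein C inhibitor, rose from 0.0728 ± 0.024 to 3.41 ± 0.266 CPM, and AMBP, the precursor of the Kunitz inhibitor bikunin, was at 0 in wild type and at least 12.8-fold higher. TFPI2, a Kunitz inhibitor of plasmin and trypsin, fell from 58.7 ± 2.87 to 3.17 ± 0.435 CPM, SERPINB5 (maspin) from 48.7 ± 0.570 to 14.3 ± 0.390 CPM and SPINK4 from 1.25 ± 0.431 to 0.645 ± 0.097 CPM.

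Among regulators of the epithelial state, the transcription and splicing factors of epithelia fell and the repressors that oppose them rose. Of 14 genes, all tested, 10 fell and 4 rose, with a median log2 fold change of -1.93. OVOL2 and GRHL3 passed the filter only through wild type, and of the other 12 genes 8 fell and 4 rose, with a median of -1.71. Over all tested genes 37.2% were called lower and 37.1% higher, so the number of rises is near that share. The splicing factor gene ESRP1 fell from 179 ± 5.91 to 7.61 ± 0.254 CPM, OVOL2 from 5.00 ± 0.291 to 0.275 ± 0.139 CPM and OVOL1 from 8.46 ± 0.742 to 0.473 ± 0.099 CPM. GRHL2, a Grainyhead-like activator named after its values were seen, had 4367, 4273 and 4333 counts in wild type and 331, 351 and 305 in the knockout (log2 fold change -3.71). The genes that rose were the repressors, with ZEB2 at 3.71, ZEB1 at 3.69 and SNAI1 at 0.56 on the log2 scale leading, and SNAI2 the other. These lists were drawn up with earlier results of these data known, so their directions are no separate evidence.

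**Figure D4:**
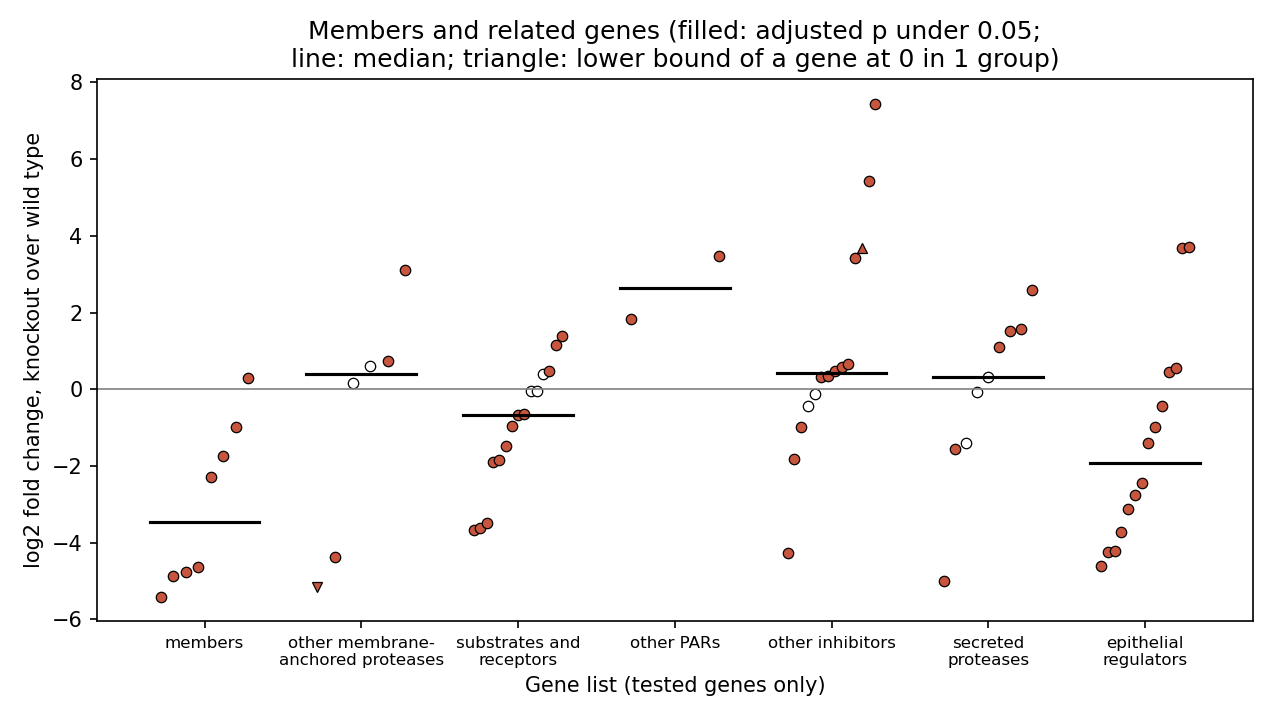
Log2 fold change (knockout over wild type) of the tested genes in the 9 chosen genes (members) and 6 related lists, filled where the adjusted p was under 0.05, with each list's median as a line and triangles for genes at 0 in 1 clone drawn at their lower bound. The line of the members, at -3.47, includes TMPRSS2, TMPRSS4 and PRSS22, which passed the filter only through wild type, and over the other 5 the median is -2.29. Both other protease-activated receptors (PARs) lie above F2RL1.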

How the data were processed

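The authors deposited whole-number read counts per gene symbol for 6 libraries, with no normalization. The build hg38 and the tools HISAT2, Trimmomatic 0.33, FastQC and edgeR are named per the submitters' processing notes. Which program, annotation and strand setting made the counts is not given in the sources used here. The table was fitted whole in R 4.3.3 with edgeR 4.0.16 (its expression filter, TMM factors and a quasi-likelihood F test over all 6 libraries, no covariate, BH over 14405 genes, threshold 0.05), and SEs are the log2 fold change over the root of F. Ratios of members were compared by exact permutation over libraries (prior count 0.5), and profiles used log2 CPM with a prior count of 2. Only the edgeR fit was tried on simulated counts, with fewer and smaller changes than these data hold. The ratio, profile and neighbour steps were not. Coordinates come from RefSeq (GRCh38.p14), for 14105 tested genes, and exon lengths from the GENCODE 29 basic set, which may not be the annotation counted.

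Members and lists were chosen with earlier results of these data known. Named in each related list are up to 3 largest called rises and falls. A few genes that the naming rules select are not reported here. Alternatives were RLE factors, library totals alone, other filters, DESeq2 1.42.0, limma-voom (limma 3.58.1), a replicate block, leaving out each library, glmTreat and another prior count. Chi-square per degree of freedom between libraries of a clone was 4.18 to 7.6, so none agreed within sampling noise.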

Additional observations from a re-analysis of the deposited data

How the results depend on the processing

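The 7 falls were called under every alternative that tested them, and the 1 rise under every one except glmTreat against a 1.5-fold change, which called 0 rises among the members and 4354 genes in all, against 10711. TMPRSS2 was not tested under a minimum of 1 CPM in 3 libraries. The lowest and highest log2 fold changes over the alternatives were -5.44 and -5.32 for ST14, -4.94 and -4.74 for PRSS8, -4.95 and -4.52 for TMPRSS4, -5.24 and -4.38 for PRSS22, -2.30 and -2.24 for SPINT1, -1.03 and -0.92 for SPINT2 and 0.27 and 0.34 for F2RL1. TMPRSS2 ranged from -2.44 to -1.34, with adjusted p up to 0.0387. The letters as a replicate block left 7 falls and 1 rise among the members and 10599 calls in all. Same-letter libraries had correlations of 0.057, -0.02 and 0.008 in their deviations from the clone means, and libraries of different letters -0.05 to 0.041. A weak shared effect, or one in few genes, would not show in this check, so it does not settle whether the letters pair libraries. Leaving out 1 library, the difference in the TMPRSS2 to SPINT1 log2 ratio ranged from -0.16 to 0.91, below 0 without knockout library a, and the cause was not tested; no other ratio changed direction under any alternative. Library totals alone moved the median of all genes by 0.054. Depth limits HPN and TMPRSS2, where 1 count is a large part of the value.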

Other observations

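Secreted serine proteases were measured as a further list of 28 genes. Of 9 tested, 4 rose, 2 fell and 3 were not called, with a median log2 fold change of 0.31. HTRA1, a protease of the extracellular matrix, had 571, 601 and 581 counts in wild type and 3570, 3714 and 3195 in the knockout (log2 fold change 2.58, edgeR with BH, adjusted p = 4.72e-14). PRSS12 rose from 14.2 ± 0.933 to 44.2 ± 1.78 CPM and KLK1, tissue kallikrein, from 0.736 ± 0.118 to 2.20 ± 0.280 CPM. KLK10 had 330, 441 and 370 counts in wild type and 15, 16 and 4 in the knockout (log2 fold change -5.01, SE 0.27, adjusted p = 9.28e-10 in the same test), and KLK5 fell from 0.388 ± 0.062 to 0.134 ± 0.054 CPM. Both passed the filter only through wild type, so their fall was built in. KLK6, not called, would have passed on neither clone alone. Of the 6 genes that would have passed on either, 4 rose, 0 fell and 2 were not called, with a median of 1.31. Over all tested genes 37.1% were called higher and 37.2% lower. The mast cell tryptase genes TPSAB1, TPSB2 and TPSD1 had no count in any library.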
